A study of Homo sapiens with 6 samples.

Results

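Cell cycle and DNA replication genes were followed in MCF10A, a human breast epithelial cell line that is immortal but does not form tumours. The 43 genes were taken by name from the 27914 genes of the deposited table, by a rule that uses no measured value, although earlier results of these data were known when they were chosen. They were split into 20 G1/S genes, which prepare and carry out DNA replication, and 23 G2/M genes, which drive mitosis. Expression was measured by RNA sequencing as TPM, a length-corrected share of transcripts scaled to a fixed total per library. The study compared 3 libraries of the SCRin control, with a wild-type genotype, and 3 libraries of the genotype α-/-;βin. Cells of both groups had been given doxycycline for 3 days. The terms SCR and in are left unexplained by the labels. The letters α and β were read as the PI5P4K enzymes of the series title, lipid kinases encoded by PIP4K2A and PIP4K2B. The α-/-;βin cells are called PI5P4K-depleted here. Neither clonal origin nor separate cultures for the replicates are stated in the labels, and the p-values therefore reflect the scatter of these libraries alone, which could be technical.

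Cells enter the cycle when cyclin and CDK complexes inactivate the retinoblastoma protein and free E2F factors, which turn on the genes for origin licensing, nucleotide supply and replication. Later in the cycle, the MYBL2 and FOXM1 factors, acting through a promoter element called CHR, turn on cyclin B, the mitotic kinases, kinesins and the anaphase machinery. Because these genes are expressed in cycling cells, their RNA is widely used as a readout of proliferation in epithelial cultures. In bulk libraries, fewer cells in a phase and less RNA per cell cannot be told apart.

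Promoters are shown for a few genes, picked after the motif matches were seen, because the 2 gene groups differed in spread across libraries and in these elements. RefSeq promoter windows of GRCh38.p14, from 250 bases before to 50 after the start site, matched 16 of 20 G1/S and 19 of 23 G2/M genes. GRCh38 is not the build the study used. The G2/M genes CCNB2, PLK1, KIF11 and CDC20 come first, as the 150 bases just before the start, 5′ to 3′, with motif matches in capitals (CCAAT, the NF-Y element, and TTTGAA, the CHR, or either reversed as ATTGG and TTCAAA). CCNB2 lies at chr15:59104996-59105145 (plus strand), PLK1 at chr16:23678739-23678888 (plus strand), KIF11 at chr10:92592980-92593129 (plus strand) and CDC20 at chr1:43358831-43358980 (plus strand).
CCNB2: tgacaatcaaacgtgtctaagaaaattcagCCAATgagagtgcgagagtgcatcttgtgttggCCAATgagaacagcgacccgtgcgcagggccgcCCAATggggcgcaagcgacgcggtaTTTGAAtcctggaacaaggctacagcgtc
PLK1: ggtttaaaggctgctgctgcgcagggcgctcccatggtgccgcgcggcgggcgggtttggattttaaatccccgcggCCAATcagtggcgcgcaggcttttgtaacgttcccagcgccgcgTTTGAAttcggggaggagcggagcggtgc
KIF11: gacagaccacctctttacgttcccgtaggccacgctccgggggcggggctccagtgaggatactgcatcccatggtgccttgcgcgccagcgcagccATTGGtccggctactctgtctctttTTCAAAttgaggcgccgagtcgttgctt
CDC20: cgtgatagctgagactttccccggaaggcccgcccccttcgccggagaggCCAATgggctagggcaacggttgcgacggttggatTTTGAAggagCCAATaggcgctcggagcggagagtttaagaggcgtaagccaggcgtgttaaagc
Within the stretch shown, the CHR match began 29 bases before the start in CCNB2 and PLK1, 28 in KIF11 and 65 in CDC20. The window of CDC20 held another CHR match at -178 bases, outside the stretch shown. Each of these genes had CCAAT matches within the stretch, 3 in CCNB2, 2 in CDC20 and 1 each in PLK1 and KIF11. None of them held an E2F match here.

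Among the G1/S genes, MCM6 at chr2:135876444-135876593 (minus strand), PCNA at chr20:5126623-5126772 (minus strand) and E2F1 at chr20:33686386-33686535 (minus strand) are shown the same way. Capitals mark CCAAT or ATTGG and the E2F matches, which were searched as TTCCCGC or its variant TTGGCGC, then as TTCGCGC or its variant TTGCCGC, on both strands.
MCM6: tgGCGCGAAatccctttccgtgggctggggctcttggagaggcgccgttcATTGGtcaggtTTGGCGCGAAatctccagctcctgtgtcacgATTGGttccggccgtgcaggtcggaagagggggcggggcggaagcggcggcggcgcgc
PCNA: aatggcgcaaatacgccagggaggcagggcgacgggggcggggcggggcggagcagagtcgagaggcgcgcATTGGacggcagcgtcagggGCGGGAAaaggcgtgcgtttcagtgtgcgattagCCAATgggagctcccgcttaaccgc
E2F1: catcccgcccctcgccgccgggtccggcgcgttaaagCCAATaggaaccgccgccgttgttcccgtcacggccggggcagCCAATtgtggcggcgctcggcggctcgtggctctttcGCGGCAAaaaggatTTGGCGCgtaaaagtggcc
No CHR match fell in these stretches, which held 3, 1 and 2 E2F matches and 2 CCAAT matches each. The window of MCM6 did hold a CHR match at -246 bases, outside the stretch shown. MCM6 is thus among the 2 G1/S genes counted below with a CHR match. In MCM6 the E2F matches 89 and 86 bases before the start overlap in a single run, and the one at 148 overlaps another that begins outside the stretch shown.

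Across the windows, an E2F match was found for 14 of 16 G1/S genes (87.5%) and 5 of 19 G2/M genes (26.3%), against 26.1% of the 9326 tested genes with a window. A CHR match (TTTGAA or TTCGAA, both strands) was found for 14 of 19 G2/M genes (73.7%) and 2 of 16 G1/S genes (12.5%), against 15.5% of tested genes. CCAAT was found for 17 of 19 and 11 of 16 genes, against 43.7%. These matches describe the letters in the window and are not shown binding sites. Over the first listed window of each gene, 13 G2/M genes held 16 CHR matches, with a median distance of -29 bases (quartiles -86.5 and -21.75). The CCAAT matches of the G2/M genes had a median of -87 (quartiles -117.5 and -55).

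**Figure D1:**
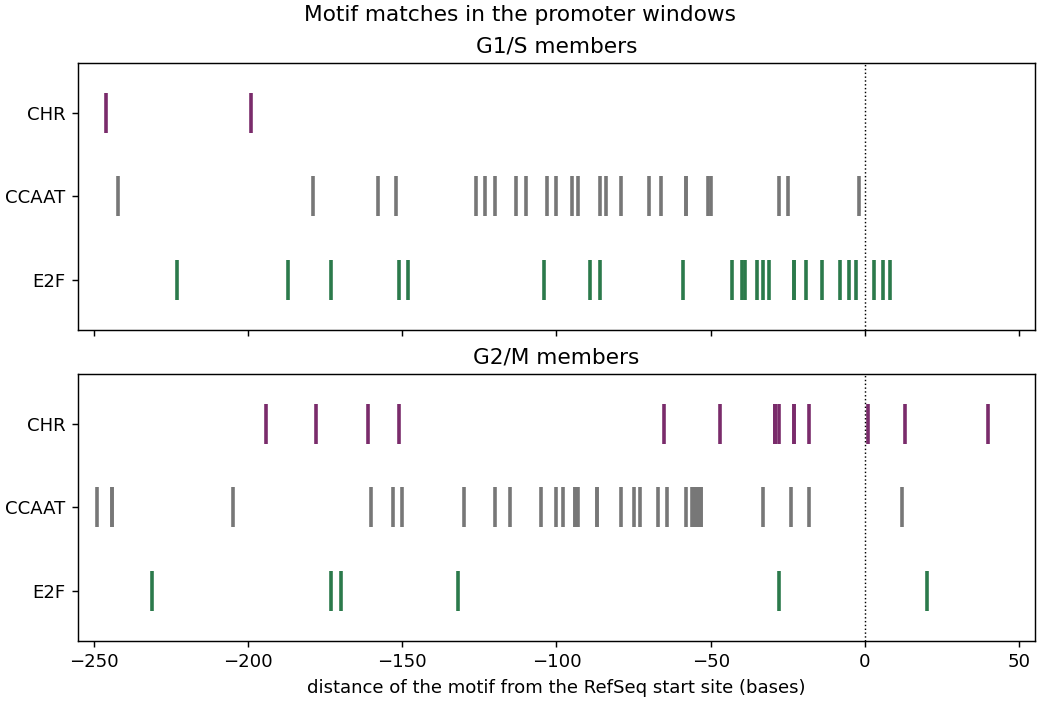
Positions of E2F, CCAAT and CHR matches (ticks, all genes of a group overlaid) relative to the RefSeq start site in bases, for G1/S (top) and G2/M genes (bottom), first listed window per gene. CHR matches of the G2/M genes have a median of -29 (quartiles -86.5 and -21.75). E2F matches of the G1/S genes have a median of -35 (quartiles -89 and -14).

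The targeted genes were measured first as a check of the labels. PIP4K2A stood at 19.8, 20.2 and 21.7 TPM in control replicates 1 to 3 and at 4.09, 4.16 and 4.35 TPM in PI5P4K-depleted replicates 1 to 3. PIP4K2B stood at 20.8, 23.1 and 21.4 TPM against 8.20, 8.69 and 11.6 TPM. Both were lower in every depleted library (log2 changes -2.05 and -1.13, limma adjusted p = 0.000847 and 0.00985, exact permutation p = 0.1 each, the smallest that 3 against 3 can give). Leaving out control replicate 3 took PIP4K2B above the threshold, to an adjusted p of 0.0602 by limma. TPM keeps no depth, so read numbers are unknown. Spearman correlations between libraries over the tested genes were 0.944 to 0.970. All 7 basal epithelial markers averaged at least 1 TPM. The keratin KRT5 stood at 576, 590 and 837 TPM in controls and 841, 1053 and 988 TPM in depleted cells. The basal list as a whole, KRT5 included, summed to 1997 to 3550 TPM in controls and 2316 to 3281 TPM in depleted cells, with overlapping groups. Of 6 luminal epithelial markers, 2 averaged at least 1 TPM. The luminal list summed to 621 to 722 TPM in controls and 552 to 670 TPM in depleted cells. Blood cell markers summed to 38.3 to 44.8 TPM in controls and 35.6 to 38.7 TPM in depleted cells, nearly all of it from CD68, a lysosomal protein, while PTPRC was listed at 0 in every library. Endothelial markers summed to at most 2.12 TPM and fibroblast markers to at most 6.32 TPM per library.

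None of the 43 genes passed the test between the groups. All 43 passed the filter of a mean of 1 TPM, none was listed at 0 in any library, and 0 had a limma adjusted p under 0.05, against 2.19% of the 12096 genes tested (0.364% higher and 1.83% lower in depleted cells). Without adjustment, MCM5 and MCM6 had a p under 0.05, making 2 genes or 4.65% of the 43 against 11.9% of all tested genes. Of the 265 genes called, 121 and 35 lie in segments of chromosomes 7 and 3 that hold no member and are described further on. Outside them, 0.837% of 11348 tested genes with a RefSeq position were called, 10.1% had an unadjusted p under 0.05 and 15.4% had groups without overlap. Groups did not overlap for 4 genes (9.30%, against 17.1% of all tested genes), all of them G1/S and all lower in depleted cells. These were 20% of the G1/S genes, near the share of all tested genes. Among all tested genes without overlap, 1381 were lower and 682 higher in depleted cells. The count of called members stayed at 0 under all 14 alternative settings, where the lowest adjusted p was 0.0696. The median log2 change was -0.06 for the G1/S genes (from -0.26 for MCM5 to 0.27 for TYMS) and -0.03 for the G2/M genes (from -0.16 for CENPE to 0.12 for CDC25C), beside -0.01 for all tested genes.

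**Figure D2:**
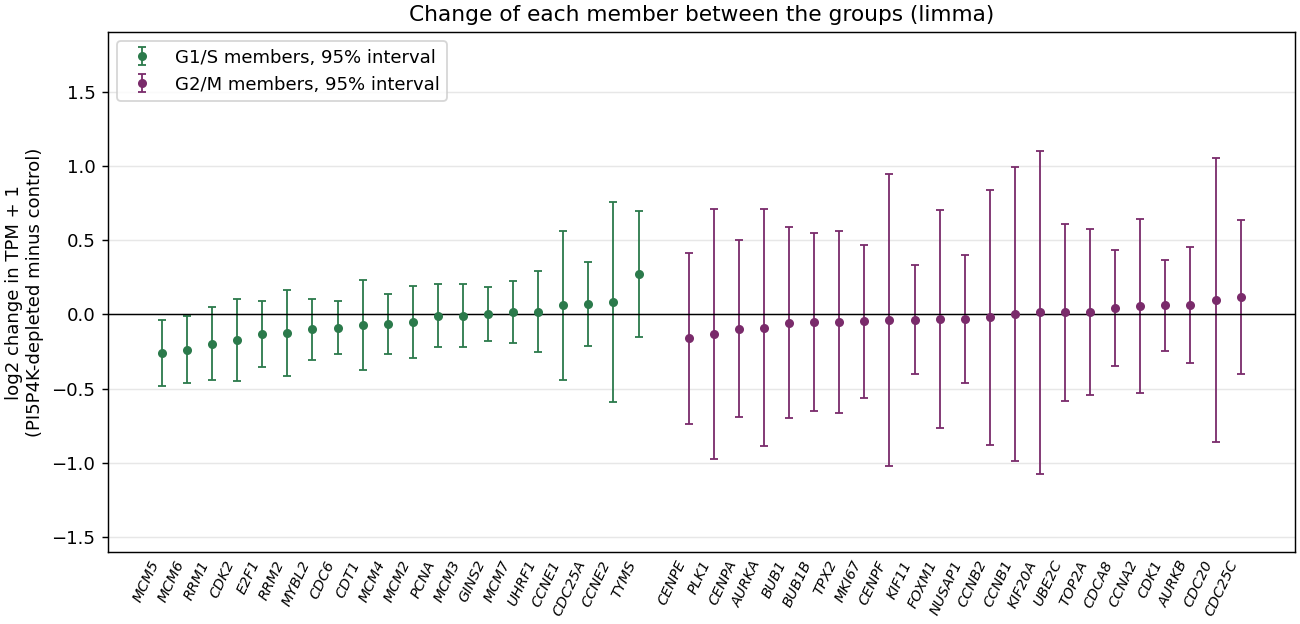
Log2 change of each gene, PI5P4K-depleted minus control, on the log2(TPM + 1) scale, with limma's 95% interval (bars, 3 libraries per group). The intervals of MCM5 and MCM6 alone do not span 0 before adjustment, and intervals are wider for G2/M (right) than for most G1/S genes (left).

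In the main fit, which does not use the replicate numbers, what the data leave room for differed between the gene groups. The 95% interval of the log2 change lay within 0.5 of 0 for 17 of 20 G1/S genes and for 5 of 23 G2/M genes, beside 5851 of the 12096 tested genes. It lay within 1 of 0, a doubling or its reverse, for all 20 G1/S genes and for 20 of 23 G2/M genes, the exceptions being CDC20, CENPF and KIF20A. The median of the intervals' half-widths was 0.23 for G1/S and 0.60 for G2/M genes. With the replicate number in the fit, as given at the end, the intervals of both gene groups were of similar width.

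The G1/S regulators are described first, with values listed in the order of replicates 1 to 3 here and below. CCNE1, cyclin E1, which with CDK2 drives entry into S phase, measured 13.2, 19.1 and 25.3 TPM in controls and 18.7, 19.6 and 20.04 TPM in depleted cells. CCNE2, cyclin E2, measured 57.2, 33.7 and 42.3 TPM against 69.5, 36.4 and 38.5 TPM. Replicate 1 was thus the highest of its group for CCNE2 in both groups, and the lowest for CCNE1 in both. CDK2, their kinase partner, measured 69.8, 57.6 and 67.9 TPM against 61.8, 51.0 and 60.2 TPM, with overlapping groups (log2 change -0.17, 95% interval -0.45 to 0.10). CDC25A, the phosphatase that activates CDK2, ranged from 25.8 to 30.7 TPM in controls and from 25.6 to 31.9 TPM in depleted cells.

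The transcription factors of this step moved little. E2F1, which switches on the replication genes, had the lowest mean of the 43 genes and measured 14.1, 14.2 and 13.4 TPM in controls against 12.9, 12.5 and 12.4 TPM in depleted cells. Every depleted library lay below every control, by a small margin (log2 change -0.13, SE 0.09, limma adjusted p = 0.679). MYBL2, a Myb family factor that leads on to the mitotic programme, measured 84.9, 97.8 and 94.96 TPM against 84.6, 85.0 and 88.7 TPM, with overlapping groups.

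Among genes that license origins and form the replicative helicase, the loading genes stood close to control. CDC6, a helicase loader, measured 68.5, 66.3 and 64.8 TPM in controls and 61.6, 63.2 and 62.6 TPM in depleted cells, without overlap but with an adjusted p of 0.734 by limma (log2 change -0.09). CDT1, its partner in loading, ranged from 19.3 to 26.1 TPM and from 19.9 to 22.2 TPM. The 6 subunits of the MCM ring, the core of the helicase, had group means between 43.9 TPM (MCM2, depleted cells) and 101 TPM (MCM4, controls) on the length-corrected scale.

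Of the ring's subunits, MCM5 and MCM6 held the lowest unadjusted p-values of the 43 genes. MCM5 measured 56.1, 60.7 and 67.2 TPM in controls and 52.0, 49.1 and 51.7 TPM in depleted cells, so that every depleted library was lower (log2 change -0.26, 95% interval -0.49 to -0.04, limma adjusted p = 0.341). MCM6 measured 82.0, 76.7 and 77.4 TPM against 73.9, 62.1 and 64.2 TPM, again without overlap (log2 change -0.24, 95% interval -0.46 to -0.01, adjusted p = 0.386). The other subunits overlapped between groups, with log2 changes from -0.07 for MCM4 to 0.01 for MCM7. MCM3 averaged 94.1 ± 7.01 TPM in controls and 93.5 ± 4.21 TPM in depleted cells (SD, n = 3), and MCM7 91.4 ± 7.10 and 92.1 ± 2.46 TPM. GINS2, a subunit of the complex that joins the ring in the active helicase, had the smallest log2 change of the set, at 56.2, 57.5 and 59.7 TPM against 58.2, 56.3 and 59.1 TPM (log2 change 0.00, 95% interval -0.18 to 0.19).

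Among genes of the fork and of nucleotide supply, PCNA, the sliding clamp of DNA polymerase, had the highest mean of the 43 genes. It measured 456, 425 and 403 TPM in controls and 458, 411 and 405 TPM in depleted cells, with nearly equal values at each replicate number. RRM1, the large subunit of ribonucleotide reductase, measured 158, 167 and 149 TPM against 155, 132 and 126 TPM. RRM2, its small subunit, measured 259.9, 338 and 314 TPM against 253, 302 and 278 TPM. Both had negative changes with overlapping groups (log2 changes -0.20 and -0.12, adjusted p = 0.545 and 0.787 by limma). TYMS, thymidylate synthase, had the highest log2 change of the set at 0.27 (95% interval -0.15 to 0.69), from 108, 171 and 135 TPM to 145, 188 and 160.2 TPM. UHRF1, which carries DNA methylation through replication, ranged from 52.0 to 65.8 TPM and from 57.4 to 65.4 TPM.

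**Figure D3:**
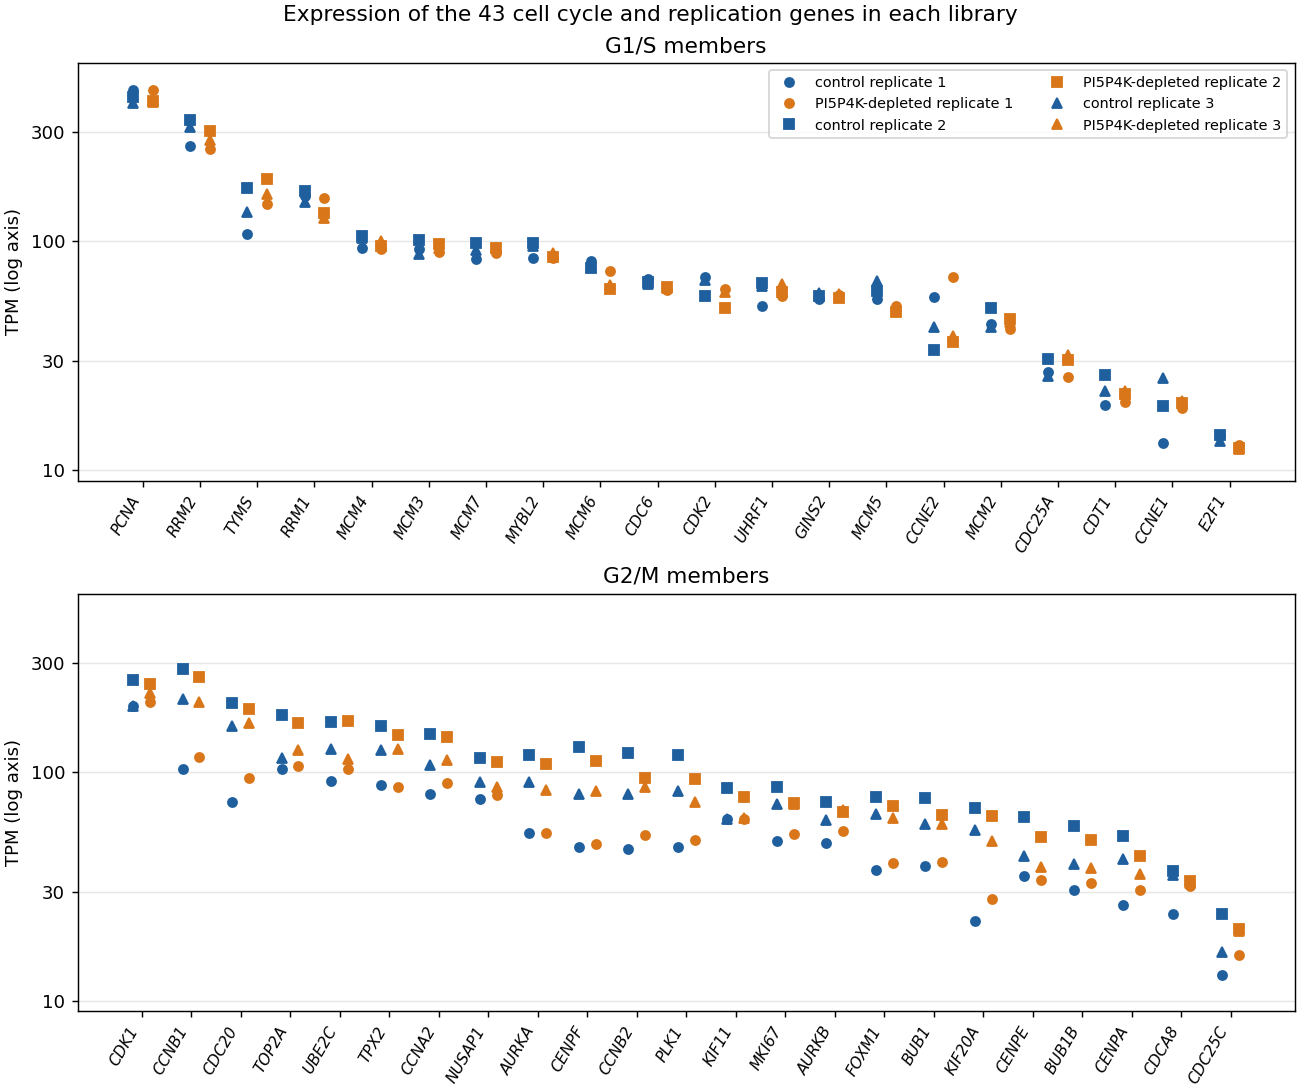
TPM of each gene in each library on a log axis, for G1/S (top) and G2/M genes (bottom), ordered by mean; blue is control, orange is PI5P4K-depleted, and the marker shape gives the replicate number. The groups overlap for all but 4 genes, while G2/M genes are spread by replicate number, with squares (replicate 2) at the top and circles (replicate 1) at the bottom.

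The G2/M genes differed far more between libraries of the same group than between the groups. CCNB1, cyclin B1, which with CDK1 drives entry into mitosis, measured 103, 280.1 and 208 TPM in controls and 116, 259.6 and 202 TPM in depleted cells. CCNB2, cyclin B2, measured 46.0, 121 and 80.3 TPM against 53.1, 93.6 and 86.1 TPM. In both groups replicate 1 was the lowest and replicate 2 the highest, and the means nearly coincided (log2 changes 0.00 and -0.02). CCNA2, cyclin A2 of S and G2 phase, measured 79.9, 146 and 107 TPM against 89.0, 142 and 112 TPM. CDK1, the mitotic kinase and the G2/M gene with the highest mean, ranged from 193 to 253 TPM in controls and from 203 to 241 TPM in depleted cells. As a ratio, its control range of 1.31-fold was the narrowest of the G2/M genes. CDC25C, the phosphatase that activates CDK1, was the lowest of the G2/M genes, at 12.99, 23.9 and 16.4 TPM against 15.9, 20.7 and 20.1 TPM.

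The factor and kinases of mitosis had the same order of libraries. FOXM1, which switches on mitotic genes, measured 37.2, 77.4 and 65.7 TPM in controls and 39.9, 70.6 and 62.8 TPM in depleted cells. PLK1, polo-like kinase 1, measured 46.8, 119 and 82.5 TPM against 50.5, 92.9 and 74.1 TPM, and its log2 change of -0.13 had a 95% interval of -0.97 to 0.71. AURKA, the centrosomal Aurora kinase, measured 54.2, 119 and 90.5 TPM against 53.9, 108 and 83.0 TPM. For each of these, replicate 1 stood lowest in each group. AURKB, the kinase of the chromosomal passenger complex, measured 48.7, 73.7 and 61.8 TPM against 55.3, 66.7 and 68.4 TPM, the one G2/M gene whose highest depleted library was replicate 3. CDCA8, borealin of the same complex, ranged from 24.0 to 37.0 TPM in controls and only from 31.7 to 33.4 TPM in depleted cells.

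Checkpoint, anaphase and kinetochore genes gave the same picture. BUB1 and BUB1B, kinase-related proteins of the spindle checkpoint, ranged from 38.8 to 76.5 TPM and from 30.4 to 58.1 TPM in controls, and from 40.5 to 64.7 TPM and from 32.8 to 50.5 TPM in depleted cells. CDC20, the activator of the anaphase-promoting complex, measured 73.7, 199.8 and 159 TPM against 94.1, 188 and 163 TPM. UBE2C, the ubiquitin-conjugating enzyme of that complex, measured 91.6, 165 and 126 TPM against 103, 167 and 114 TPM. CENPF, a kinetochore-associated protein, measured 46.9, 128 and 80.2 TPM against 48.3, 112 and 82.8 TPM, the widest depleted range of the set at 2.31-fold. CENPA, the centromeric histone, ranged from 26.3 to 52.6 TPM and from 30.5 to 43.1 TPM. CENPE, a kinetochore motor, ranged from 34.9 to 63.7 TPM and from 33.8 to 51.9 TPM.

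Spindle genes included both the widest and one of the narrower ranges. KIF20A, a kinesin of cytokinesis, measured 22.2, 69.2 and 55.5 TPM in controls, a 3.11-fold range, and 27.7, 63.9 and 50.0 TPM in depleted cells. KIF11, the motor that separates spindle poles, measured 62.3, 85.0 and 61.9 TPM against 62.1, 77.7 and 62.9 TPM, and was the one G2/M gene whose lowest control was replicate 3. NUSAP1 and TPX2, which organise spindle microtubules, ranged from 76.3 to 115 TPM and from 87.8 to 158 TPM in controls, with 78.9 to 109.8 TPM and 86.1 to 144 TPM in depleted cells. TOP2A, the topoisomerase that untangles chromosomes, measured 103, 177 and 114 TPM against 106, 164 and 125 TPM. MKI67, the Ki-67 proliferation marker, measured 49.9, 85.9 and 72.7 TPM against 53.4, 73.3 and 72.0 TPM (log2 change -0.05, 95% interval -0.56 to 0.47).

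Counted over the genes, replicate 2 was the highest control for 23 of 23 G2/M genes and the highest depleted library for 22 of 23, beside 44.4% and 43.8% of all tested genes. Replicate 1 was the lowest control for 22 and the lowest depleted library for 23, beside 51.3% and 43.8% of all tested genes. For G1/S genes, replicate 2 was the highest control for 12 of 20 and the highest depleted library for 5 of 20. Replicate 1 was the lowest control for 10 of these 20 and the lowest depleted library for 12. The median ratio of the highest to the lowest control was 1.84 for G2/M and 1.18 for G1/S genes, and in depleted cells it was 1.59 and 1.11. A 2-fold range among controls was reached by 9 G2/M genes and 0 G1/S genes. The within-group SD of log2(TPM + 1) had a median of 0.39 for G2/M and 0.11 for G1/S genes. Of all tested genes, 12.1% had an SD of at least the former and 81.9% of at least the latter. These shares describe the libraries and were not tested.

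The mean level of each gene group in each library shows the same. Relative to the mean of the controls on the log2(TPM + 1) scale, the G2/M level was -0.50, 0.45 and 0.05 in controls and -0.37, 0.29 and 0.04 in depleted cells. The G1/S level was -0.07, 0.05 and 0.01 against -0.04, -0.06 and -0.05. The G1/S level minus the G2/M level therefore differed by -0.03 between the groups, with SDs of 0.42 among controls and 0.35 among depleted libraries. Summed TPM of the 23 G2/M genes ran from 1391 to 2683 in controls and from 1505 to 2437 in depleted cells, and that of the 20 G1/S genes from 1895 to 2063 and from 1878 to 1920.4. Because of the spread, the median change of the G2/M genes took its sign from single libraries, at -0.28 without control replicate 1 and 0.19 without control replicate 2.

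**Figure D4:**
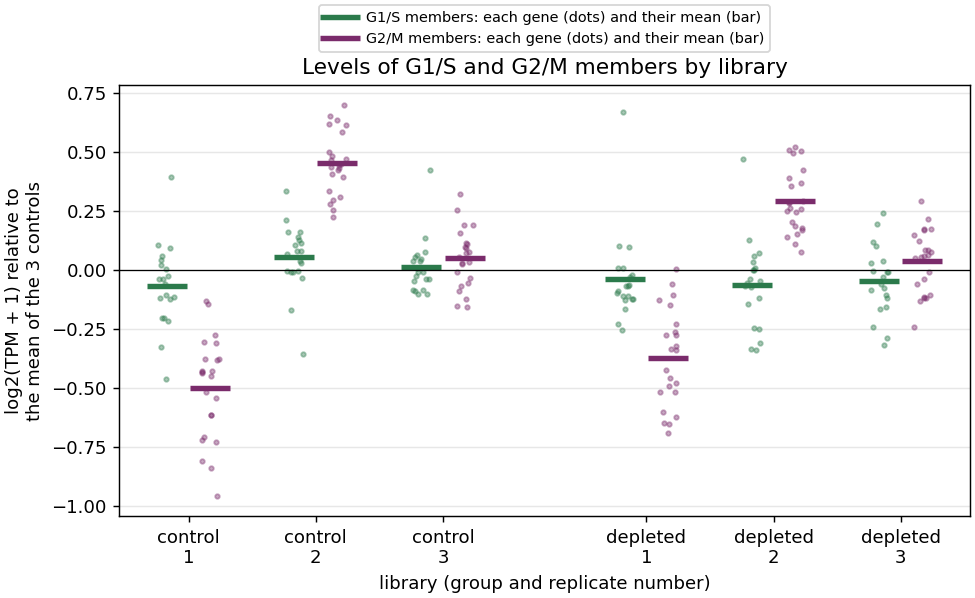
Log2(TPM + 1) of each gene (dots) and the mean of each gene group (bars) in each library, relative to the mean of the 3 controls. G2/M bars run from -0.50 in control replicate 1 to 0.45 in control replicate 2, and G1/S bars stay between -0.07 and 0.05.

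Other measures moved with the libraries too. Median-of-ratios scaling factors were taken over genes above 0 in every library with a mean of at least 1 TPM. They were 0.959, 1.05 and 1.03 in controls and 0.968, 1.02 and 0.997 in depleted cells. Within each group they had the same order as the G2/M level. After division by these factors the G2/M level still was -0.42, 0.40 and 0.03 against -0.31, 0.28 and 0.06. Short RNA genes took 8.39%, 7.51% and 8.62% of TPM in controls and 8.02%, 7.34% and 8.09% in depleted cells, lowest in replicate 2. Summed TPM of the 7 basal epithelial markers was also lowest in replicate 2 of each group, in a range of 1997 to 3550.3 TPM in controls and of 2316 to 3281 TPM in depleted cells. The part of these in the G2/M levels was not tested.

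Further genes of the same pathways, in lists made from their textbook roles, gave 2 calls, both lower and both on the chromosome 7 segment described next. Of 58 further G1/S genes, 2 were lower, 0 were higher and 56 did not pass, with a median log2 change of -0.02, beside 1.83% called lower among all tested genes. RPA3, the small subunit of the single-strand DNA-binding protein RPA, fell from 61.0, 66.9 and 57.2 TPM to 25.2, 28.6 and 32.2 TPM (log2 change -1.08, SE 0.12, limma adjusted p = 0.00609). POLD2, a subunit of DNA polymerase delta, fell from 156, 195 and 192 TPM to 87.7, 109.6 and 107 TPM (log2 change -0.83, SE 0.13, adjusted p = 0.0248). The RPA3 call held under all 14 alternatives, while that of POLD2 was lost under 6 of them, without a filter (adjusted p = 0.0529) and without control replicate 2, control replicate 3 or any single depleted library (0.0539 to 0.120 by limma). Over all alternatives its adjusted p ran from 0.00129 to 0.120. GMNN, geminin, the licensing inhibitor and the highest of the list, measured 159, 158 and 144 TPM against 130.3, 157 and 142 TPM.

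Of 64 further G2/M genes, 0 passed by limma (3 at an unadjusted p under 0.05, or 4.69%), beside 2.19% called and 11.9% at an unadjusted p under 0.05 among all tested genes, with a median log2 change of -0.01. CKS2, a CDK-binding protein and the highest of the list, measured 292, 581 and 457 TPM in controls and 294, 594 and 442 TPM in depleted cells. Replicate 2 was the highest control for 63 of the 64 genes and the highest depleted library for 52. ANLN, the cytokinesis protein anillin, picked out once its values were known, measured 267, 437 and 321 TPM against 128, 191 and 171 TPM, without overlap (log2 change -1.05, adjusted p = 0.0665 by limma).

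RPA3, POLD2 and ANLN all lie in a segment of chromosome 7, from the first gene in RefSeq order through CHCHD2, in which 182 of 185 tested genes with a RefSeq position had a negative log2 change and 121 were called lower (median -0.92). None of the 43 members lies in this segment or in the similar one on chromosome 3 (66 tested genes, 35 called lower, median -0.80). MCM7 is on chromosome 7 and CDC25A and MCM2 are on chromosome 3, outside the segments, with log2 changes of 0.01, 0.07 and -0.05. Without the segment genes, 0 of 56 further G1/S genes and 0 of 63 further G2/M genes passed, with 4 and 2 at an unadjusted p under 0.05. Promoters of the further lists held the same letters, with CHR in 42 of 53 G2/M genes (79.2%) and E2F in 36 of 49 G1/S genes (73.5%).

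Other regulators, mainly of G1 but some of later phases, were also without calls in the main fit, 0 of 29 tested by limma. Of these, 5 had an unadjusted p under 0.05, or 17.2%, beside 11.9% of all tested genes. CCND1, cyclin D1, the highest of the list, measured 176, 184 and 216 TPM against 163, 166 and 185 TPM. Of its kinases, CDK4 measured 65.6, 87.0 and 64.4 TPM against 77.3, 105 and 79.9 TPM. CDK6 measured 17.1, 23.7 and 25.6 TPM against 27.8, 33.2 and 34.5 TPM, higher in every depleted library (log2 change 0.52, 95% interval 0.13 to 0.91, adjusted p = 0.263 by limma). RB1, the retinoblastoma protein, averaged 66.9 ± 6.02 and 65.2 ± 2.89 TPM (SD, n = 3). The CDK inhibitors CDKN1A (p21) and CDKN1B (p27) averaged 120.1 ± 15.6 and 125 ± 11.7 TPM, and 28.0 ± 2.72 and 28.7 ± 1.59 TPM. CDKN2A, an inhibitor locus known to be deleted in MCF10A, was listed at 0.842, 0 and 0.651 TPM in controls and at 0 in all depleted libraries, below the filter, and CDKN2B was listed at 0 in all 6.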

How the data were processed

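Gene expression was measured in 6 libraries of MCF10A cells, 3 per group. The authors deposited 1 table of TPM for 27914 genes, with each column summing to 1000000. Per the submitters' processing notes the build was hg19, and DESeq2 is named there without a role. As to aligner, quantification program and annotation, nothing is stated in the labels or the file header. Control columns matched their samples by name and replicate number, and the remaining columns, headed as the experiment, were assigned to the α-/-;βin samples.

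The 12096 genes (43.3%) averaging 1 TPM or more were compared on log2(TPM + 1), which understates changes of low genes, with limma 3.58.1 in R 4.3.3 (trend, two-sided) and Benjamini-Hochberg adjustment over all of them, threshold 0.05. The fit was tested on simulated data with independent noise for each gene and library. That simulation held no shifts shared by the genes of a library, as the G2/M genes had, and so does not cover them. TPM keeps no depth, so no counting interval is given. Members and gene lists were chosen with earlier results of these data known. Named genes were all 43 members, the targeted genes, called genes of the further lists, the highest gene of each list and 7 fixed G1 regulators. ANLN, CDKN2B and the marker genes KRT5, CD68 and PTPRC fall outside this rule and were named after their values were seen. The chromosome segments were taken from an earlier description of these data, with RefSeq gene order used only for position. Alternatives were another pseudocount, 2 filters, 3 scalings, no trend, a replicate block and leaving out each library.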

Additional observations from a re-analysis of the deposited data

How the results depend on the processing

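Under the 14 alternatives, 0 of 43 members were called each time. The sign of the log2 change, which was called for none, turned under at least 1 alternative for 32 members (9 G1/S and 23 G2/M), and for 5 under another scaling. PIP4K2A stayed called throughout, and PIP4K2B missed the threshold only without control replicate 3, at a log2 change of -1.14 (the range with 1 library left out was -1.27 to -1.04). Calls over all genes numbered 106 without control replicate 3, 119 without depleted replicate 3, 163 without depleted replicate 1 and at most 219 with any library left out, against 265. The G1/S median was -0.10 without control replicate 1 and -0.025 without control replicate 2, its extremes with 1 library left out. Median-of-ratios scaling and quantile normalisation brought it from -0.06 to -0.031 and -0.020, and the G2/M median from -0.03 to -0.0050 and -0.0028. The G2/M median ran from -0.28 to 0.19 and the G1/S minus G2/M difference from -0.23 to 0.18. CDK4 and CDK6 passed with the replicate block only, at log2 changes of 0.27 and 0.52 (adjusted p = 0.0367 and 0.0202). That block gave 881 calls over all genes and 0 members, with a lowest adjusted p of 0.0696 for MCM6, and the median half-widths of the G1/S and G2/M intervals were 0.16 and 0.18, with all 43 intervals within 0.5 of 0. The labels only number the replicates. Deviations of same-numbered libraries correlated at 0.246, 0.269 and -0.015 over all tested genes, and those of differently numbered libraries at -0.293 to 0.0526. As replicate 3 had no positive correlation, the numbers were not taken to pair samples, and control replicate 3 did not correlate best with its own number. TPM gives no depth, so what read numbers limit is unknown.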
